A study of Homo sapiens with 10 samples.

Results

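TET1, TET2 and TET3 are the 3 members of the TET family of DNA dioxygenases, and TDG is thymine DNA glycosylase, the enzyme that acts after them. The gene set was fixed by name, and each gene was to be measured through its Ensembl transcripts. The deposited tables list transcripts without gene names, so membership rests on the 4 transcripts that the selection rule itself names: ENST00000373644 for TET1, ENST00000380013 and ENST00000540549 for TET2, and ENST00000409262 for TET3. These are 4 of 187626 listed transcripts and cover 3 of the 4 genes. The level of TDG was not analysed here, and other transcripts of the TET genes were not used, so each value below belongs to the named transcripts and is not the full output of a gene.

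TET enzymes use oxygen, iron and 2-oxoglutarate to oxidise 5-methylcytosine to 5-hydroxymethylcytosine, and then to 5-formylcytosine and 5-carboxylcytosine. TDG removes the latter pair of bases from DNA, and base excision repair puts an unmodified cytosine in their place. Loss of 5-hydroxymethylcytosine is a known feature of melanoma, and lower TET2 and IDH2 activity has been linked to it.

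The cells were 501Mel, an established human melanoma cell line. They received a small interfering RNA against IRF4, an interferon regulatory factor known from lymphocytes and pigment cells (siIRF4, 3 libraries), or a control one (siCTRL, 3 libraries). Polyadenylated RNA was sequenced, and neither the dose nor the time of treatment is given in the sources used here. Total estimated counts lay between 129989698 and 203758441, with the highest in siCTRL replicate 2. The level of IRF4 and the melanocyte markers were not analysed here for want of gene names, so the knockdown, the labels and the cell type were not checked on them. The first principal component of the 83831 transcripts that passed the count filter held 33.6% of the variance. On it, siIRF4 replicate 1 lay at -111 beside siCTRL replicates 1 and 3 (-128 and -173). There siCTRL replicate 2 lay at 132 beside siIRF4 replicates 2 and 3 (199 and 80.8). The same values also placed libraries by number: both replicate 1 libraries were negative and both replicate 2 libraries positive. Only the replicate 3 libraries differed in sign, at 80.8 in siIRF4 and -173 in siCTRL. Whether the labels or the replicate numbers account for these places was not tested. Results are also given without siIRF4 replicate 1 and siCTRL replicate 2, the libraries that stood with the other label.

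The sequences before the start of each gene are shown because the study concerns a DNA-binding factor, and because a promoter is the one view of TDG given here. Each run holds the 250 bases before the first RefSeq start of the gene (GRCh38.p14), and the capitals mark CACGTG, the E-box read by basic helix-loop-helix factors such as MITF, the master regulator of melanocytes.
TET1 promoter, chr10:68560087-68560336, plus strand: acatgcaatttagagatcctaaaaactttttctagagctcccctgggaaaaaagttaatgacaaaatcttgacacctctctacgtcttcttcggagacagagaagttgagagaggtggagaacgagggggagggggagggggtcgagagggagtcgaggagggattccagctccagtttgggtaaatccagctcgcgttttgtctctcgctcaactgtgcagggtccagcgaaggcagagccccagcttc
TET2 promoter, chr4:105145625-105145874, plus strand: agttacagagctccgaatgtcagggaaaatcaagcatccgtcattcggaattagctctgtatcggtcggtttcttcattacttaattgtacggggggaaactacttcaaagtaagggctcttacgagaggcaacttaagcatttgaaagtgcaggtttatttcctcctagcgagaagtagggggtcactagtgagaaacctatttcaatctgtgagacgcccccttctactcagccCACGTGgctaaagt
TET3 promoter, chr2:73984660-73984909, plus strand: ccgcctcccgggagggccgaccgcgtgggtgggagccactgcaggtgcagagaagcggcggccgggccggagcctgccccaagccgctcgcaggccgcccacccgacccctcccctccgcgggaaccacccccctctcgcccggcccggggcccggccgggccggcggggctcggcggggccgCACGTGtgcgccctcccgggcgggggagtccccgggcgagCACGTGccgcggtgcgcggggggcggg
TDG promoter, chr12:103965622-103965871, plus strand: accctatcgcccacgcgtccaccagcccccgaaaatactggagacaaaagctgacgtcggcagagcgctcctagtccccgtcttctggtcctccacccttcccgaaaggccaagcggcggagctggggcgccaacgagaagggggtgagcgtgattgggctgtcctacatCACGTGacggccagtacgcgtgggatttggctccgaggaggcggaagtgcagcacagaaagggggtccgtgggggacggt
The RefSeq table holds 8 such windows for the 4 genes, each of 300 bases with 250 before and 50 after a start: 3 for TET1, 2 for TET2, 2 for TET3 and 1 for TDG. CACGTG stood in 3 of these 8 windows, against 7.26% of all 35116 windows in the table. Its first base lay 80 bases before the start in TDG, 14 bases before in TET2 and 67 and 27 bases before in TET3. The tandem site of interferon regulatory factors (GAAA, any 2 bases, GAAA), their composite site with ETS factors (GGAA, any 2 bases, GAAA) and that with AP-1 (TGANTCA, any 4 bases, GAAA), searched on both strands, matched 0 of the 8 windows, against 3.57%, 2.82% and 0.11% of all windows. The E-box was chosen after the sequences were seen, a match does not show that a factor binds, and the want of a match says only that these letters are not in these windows. Whether the ChIP-seq peaks of the study lie at these genes was not analysed here, since no annotation in the coordinates of the peak lists was used. The first windows of TET3, TDG, TET2 and TET1 held 45, 22, 13 and 10 CpG dinucleotides, the substrate of DNA methylation, and the median of all windows was 14. The later windows held 33 for TET3, 35 for TET2 and 6 and 11 for TET1. Which start the measured transcripts use was not analysed here.

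RNA of all 3 TET genes was detected in every library. Levels are given in TPM, transcripts scaled by length to a library sum of 1e+06, so the named transcripts may be compared in level. They are not full gene levels: TET2 is the sum of 2 named transcripts, TET1 and TET3 are 1 each, and others were not used. TET3, the form that oxidises the paternal genome in the zygote, had the highest mean of these levels. It was 5.85 ± 1.35 TPM (SD, n = 3) in siIRF4 and 5.98 ± 0.496 TPM in siCTRL. TET2, a frequent target of mutation in blood cancers, had a summed level of 4.51 ± 0.234 TPM in siIRF4 and 4.41 ± 1.70 TPM in siCTRL. TET1, which was first found as a fusion partner of MLL in leukaemia, had 2.03 ± 0.448 TPM in siIRF4 and 2.15 ± 0.406 TPM in siCTRL. In no case did the means of the groups differ by as much as the larger SD, and the values of the groups overlapped for each gene.

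**Figure D1:**
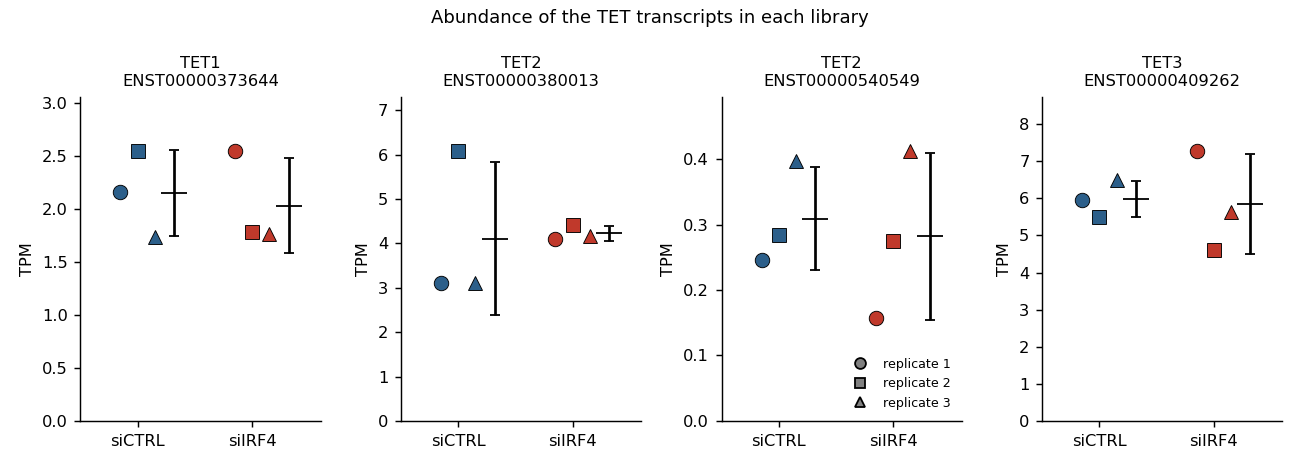
Level of each transcript in TPM (vertical axes, each from 0) in the siCTRL and siIRF4 libraries; marker shapes stand for replicate numbers, and the bar beside each group is the mean ± SD (n = 3). The groups overlap in every panel, and siCTRL replicate 2 at 6.09 TPM stands above the other libraries for ENST00000380013.

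The order of the levels held firm at the bottom and varied at the top. TET1 was the lowest in all 6 libraries: its TPM was exceeded 1.56 to 2.64 times by TET2 and 2.16 to 3.74 times by TET3. TET3 exceeded TET2 in 4 libraries, by 1.71 and 1.23 times in siIRF4 replicates 1 and 3 and by 1.77 and 1.86 times in siCTRL replicates 1 and 3. TET2 exceeded TET3 in the other 2, where the TET3 to TET2 ratio was 0.982 in siIRF4 replicate 2 and 0.864 in siCTRL replicate 2. In siIRF4 replicate 2 the main TET2 transcript alone, at 4.43 TPM, lay below TET3 at 4.62 TPM. The ranges of TET2 (3.36 to 6.38 TPM) and TET3 (4.62 to 7.29 TPM) overlapped, whereas the range of TET1 (1.74 to 2.55 TPM) lay below both. The order of the genes was described and not tested. Among the transcripts that passed the count filter, the TET3 transcript ranked at a percentile of TPM between 78.1 and 83.2 in each library, the main TET2 transcript between 71.3 and 80.9, and the TET1 transcript between 60.0 and 69.1.

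The siRNA comparison asked whether TET levels differ after treatment with siIRF4. TET1, TET2 and TET3 did not pass an adjusted p of 0.05 in edgeR (quasi-likelihood), and the share of all 83830 features tested that passed it was 0%. An unadjusted p under 0.05 was reached by 2.14% of the features and by 0 of the 3 TET genes. The 2 groups held values that do not overlap for 7.3% of transcripts, and again for 0 of the 4 TET transcripts.

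TET1 is the member that carries a CXXC zinc finger able to bind CpG-rich DNA. ENST00000373644, of 9288 bases, had 2.55, 1.78 and 1.76 TPM in siIRF4 replicates 1, 2 and 3 and 2.16, 2.55 and 1.74 TPM in siCTRL replicates 1, 2 and 3. The highest values were nearly equal and came one from each group, from siIRF4 replicate 1 and siCTRL replicate 2. The log2 fold change of siIRF4 against siCTRL was -0.08 (SE 0.241, 95% interval -0.66 to 0.50, edgeR adjusted p = 1.00). Without the libraries just named it was -0.16 (SE 0.187, edgeR adjusted p = 0.812), and the groups still overlapped. Its sign turned, to 0.055 and 0.060, without siIRF4 replicate 3 and without siCTRL replicate 2. The estimated count was a whole number, within 1e-06, in all 6 libraries, from 1469 to 3313. For the other 3 transcripts it was fractional in all 6, as when fragments are divided between targets that share sequence.

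TET2 has no CXXC domain of its own. ENST00000380013, of 9679 bases, carried most of its measured level, with 4.09, 4.43 and 4.17 TPM in siIRF4 replicates 1, 2 and 3 and 3.12, 6.09 and 3.10 TPM in siCTRL replicates 1, 2 and 3. The siIRF4 values sat close together, above siCTRL replicates 1 and 3 and below siCTRL replicate 2. Its log2 fold change was 0.04 (SE 0.286, 95% interval -0.64 to 0.72, edgeR adjusted p = 1.00). For the sum of both TET2 transcripts it was 0.03 (SE 0.265, 95% interval -0.61 to 0.66, edgeR adjusted p = 1.00).

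The TET2 difference depended on single libraries. It turned to -0.14 without siCTRL replicate 1, -0.11 without siCTRL replicate 3 and -0.028 without siIRF4 replicate 2. Without siCTRL replicate 2, which also had the largest total count, the summed TET2 level of the siIRF4 libraries (4.25, 4.70 and 4.58 TPM) lay wholly above that of siCTRL replicates 1 and 3 (3.36 and 3.50 TPM). The log2 fold change was then 0.39 (SE 0.148, 95% interval 0.02 to 0.75, edgeR adjusted p = 0.936). The omitted library had the highest TET2 level of all, 6.38 TPM, so its removal by itself raises the difference. The value and its interval therefore cannot be read as an effect of siIRF4. A place wholly above siCTRL replicates 1 and 3 was taken by 10.4% of all transcripts, and before adjustment the p of TET2 ranked within the lowest 4.01% of that fit. With siIRF4 replicate 1 left out as well, the log2 fold change was 0.41 (SE 0.142, adjusted p = 0.359 in edgeR). The part of library depth in this was not tested.

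ENST00000540549, a TET2 transcript of 10166 bases, was the scarcest of those measured. It had 0.157, 0.276 and 0.413 TPM in siIRF4 replicates 1, 2 and 3 and 0.247, 0.284 and 0.397 TPM in siCTRL replicates 1, 2 and 3. The highest and the lowest value both lay in siIRF4. Its log2 fold change was -0.16 (SE 0.378, 95% interval -1.06 to 0.74, edgeR adjusted p = 1.00). The main transcript, ENST00000380013, took 96.3%, 94.1% and 91.0% of the TET2 pair's TPM in siIRF4 replicates 1, 2 and 3, and 92.7%, 95.5% and 88.7% in siCTRL replicates 1, 2 and 3. The mean shares were 93.8% ± 2.68 and 92.3% ± 3.46 (SD, n = 3), a difference of 1.52 percentage points (exact two-sided permutation p = 0.6, where the smallest p that 3 against 3 allows is 0.1). It was 1 of 8 exact permutation tests on quantities taken once per library, with the gene shares of the TET sum, that sum and the ratios between the genes. Their p values ran from 0.5 to 1.0, and that of the TET2 share adjusted over the 8 was 0.914.

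TET3, like TET1, has a CXXC domain in its long form. ENST00000409262, of 11388 bases, had 7.29, 4.62 and 5.65 TPM in siIRF4 replicates 1, 2 and 3 and 5.95, 5.51 and 6.50 TPM in siCTRL replicates 1, 2 and 3. The siIRF4 values lay on both sides of the siCTRL range, with siIRF4 replicate 1 the highest of all and siIRF4 replicate 2 the lowest. The log2 fold change was -0.04 (SE 0.198, 95% interval -0.51 to 0.44, edgeR adjusted p = 1.00). It turned to 0.092, 0.036 and 0.033 without siIRF4 replicate 2, siIRF4 replicate 3 and siCTRL replicate 3. Without siIRF4 replicate 1 it was -0.26 (SE 0.144, edgeR adjusted p = 0.938). Without siCTRL replicate 2 too, TET3 lay at 4.62 and 5.65 TPM in siIRF4, below both remaining siCTRL values of 5.95 and 6.50 TPM. This gave -0.32 on the log2 scale (SE 0.137, edgeR adjusted p = 0.457).

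**Figure D2:**
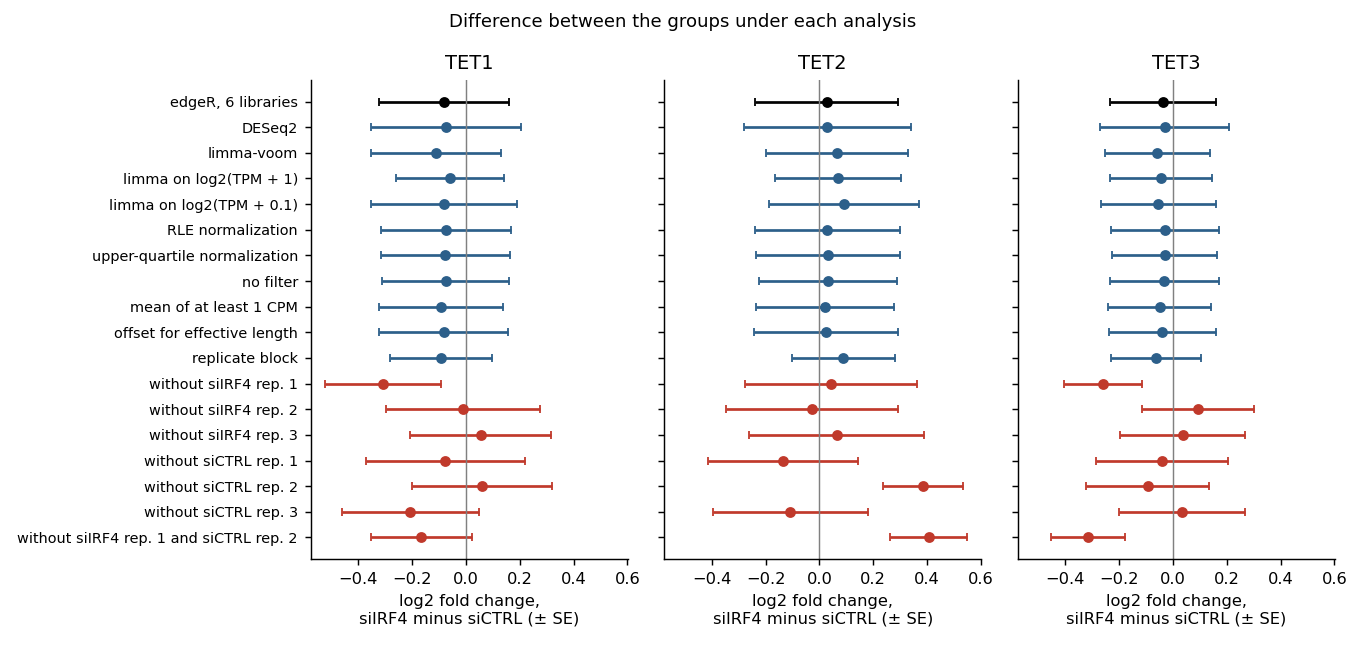
Log2 fold change of siIRF4 against siCTRL (horizontal axis, ± SE) for TET1, the TET2 pair and TET3 under the analysis on 6 libraries (black), other methods on the same libraries (blue) and fits that leave libraries out (red). Points on 6 libraries stay near 0, and the TET2 point moves to 0.39 without siCTRL replicate 2.

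With siIRF4 replicate 1 and siCTRL replicate 2 left out, TET2 was higher and TET3 lower in siIRF4 with no overlap, and TET1 overlapped. A lack of overlap between the 4 remaining libraries was found for 45.8% of all transcripts tested, so it is no result about the TET genes. No transcript passed an adjusted p of 0.05 in that edgeR fit, where 10811 of 85498 transcripts had an unadjusted p under 0.05, against 1791 of 83831 with all 6 libraries. The left-out libraries were chosen by their place on the first component of these same data, which favours separation of the rest. The rise in small p values therefore cannot be read as an effect of siIRF4.

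The balance within the family was then read as shares inside each library, where library scaling has no part. TET3 made up 51.7%, 41.6% and 47.1% of the summed TET level in siIRF4 replicates 1, 2 and 3 and 51.9%, 38.2% and 55.4% in siCTRL replicates 1, 2 and 3. TET2 made up 30.2%, 42.4% and 38.2% in siIRF4 and 29.3%, 44.2% and 29.8% in siCTRL, in the same order. TET1 had the narrowest range in these terms, between 14.7% and 18.8% of the sum. The TET2 share was thus near 30% in siIRF4 replicate 1 and siCTRL replicates 1 and 3 and above 38% in the other 3 libraries. This is the division seen on the first component and not that of the labels. It also puts both replicate 1 libraries on the low side and both replicate 2 libraries on the high side. How many of all transcripts divide in this way was not counted, so it is no result about TET2. The summed level, unlike the shares, depends on library scaling. It was 14.1 TPM in siIRF4 replicate 1 and 14.4 TPM in siCTRL replicate 2, and between 11.1 and 12.0 TPM in the other libraries. The libraries that stood with the other label were thus also those with the highest TET sum. The highest TET3 level (7.29 TPM) lay in siIRF4 replicate 1 and the highest TET2 level (6.38 TPM) in siCTRL replicate 2. TET1 was near 2.55 TPM in both. How many other features are highest in these libraries was not counted, so it is no result about the TET genes.

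**Figure D3:**
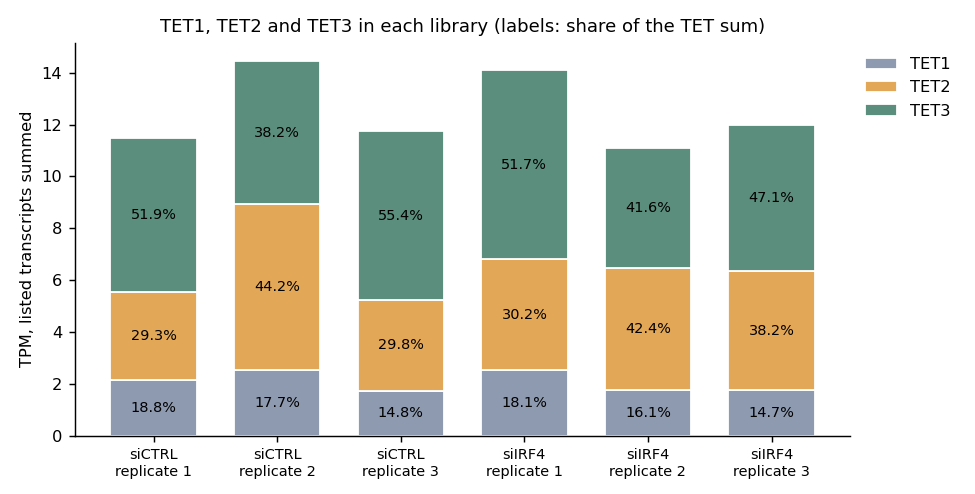
Summed TPM of the named transcripts (vertical axis, from 0) in each library, stacked by gene, with each gene's share of the TET sum printed in its segment. TET3 takes 38.2% to 55.4%, TET2 29.3% to 44.2% and TET1 14.7% to 18.8%, with no split by siRNA.

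Counting error was small beside the spread between libraries. From the estimated counts alone, the coefficient of variation of a single library would be 1.06% to 1.40% for TET3, 1.10% to 1.91% for the main TET2 transcript, 1.74% to 2.61% for TET1 and 4.80% to 8.06% for ENST00000540549. The spread estimated by edgeR between libraries of a group was 22.9% for TET3, 28.9% for the main TET2 transcript, 26.8% for TET1 and 39.9% for ENST00000540549. Across the 18550 transcripts that averaged 5 CPM (counts per 1e+06) or more, the median was 24.7%. The labels do not say whether the libraries came from separate cultures, so this spread may be technical in part.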

How the data were processed

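RNA-seq tables of 6 libraries were used, grouped by sample title. The authors deposited estimated counts and TPM per transcript, with lengths in bases, per the file headers; kallisto and sleuth, and the builds GRCh38 and hg19 with no stated role, are listed in the submitters' processing notes. Versions are not given in the sources used here.

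Counts were to be summed per gene. As no table pairing transcripts with genes was used, the planned fallback was taken: the TET2 transcripts named by the rule were summed, and the fit ran on these sums together with all other transcripts. TDG, IRF4, the planned lists (repair, cofactor supply, TET partners, methylcytosine readers) and cell type markers were not analysed here. The members, lists and left-out libraries were chosen with earlier results of these data known.

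Rounded estimated counts were tested with edgeR 4.0.16 in R 4.3.3 (TMM, filterByExpr, quasi-likelihood, two-sided, Benjamini-Hochberg over all features, threshold 0.05). A run on simulated data planted only changes larger than those found for the TET genes, so it does not cover differences of that size. SE is |log2 fold change| over the root of F. Principal components were taken from log2 CPM (prior count 2) of the transcripts that passed filterByExpr. The naming rule asked for the members, their transcripts that average 1 TPM or are named by the rule, and the 3 transcripts most like each by Pearson's r. These had r from 0.9864 to 0.9969 over 6 libraries, among transcripts averaging 5 CPM or more, and are not named because the files give them no gene. Alternatives used DESeq2 1.42.0, limma 3.58.1, other normalizations and filters, a length offset, the replicate block and fewer libraries. The 2 ChIP-seq peak lists were not used. Promoters are from RefSeq, matched by symbol for 4 of 4 genes.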

Additional observations from a re-analysis of the deposited data

How the results depend on the processing

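The log2 fold changes of TET1, TET2 and TET3 kept their sign in the 10 alternatives fitted on all 6 libraries. The values ran from -0.11 to -0.06 for TET1, 0.02 to 0.09 for TET2 and -0.06 to -0.03 for TET3. Those fits used DESeq2, voom, limma on log2 TPM with 1 or 0.1 added, RLE or upper-quartile scaling, the length offset and the replicate block. The others changed the filter, to every transcript with any rounded count or to those averaging 1 CPM. Leaving out 1 library gave -0.31 to 0.06 for TET1, -0.14 to 0.39 for TET2, -0.26 to 0.09 for TET3, -0.47 to 0.11 for ENST00000540549 and -0.12 to 0.44 for ENST00000380013, so every sign turned in at least 1 of these fits, and none passed the adjusted threshold. TET1 turned to 0.055 without siIRF4 replicate 3 and 0.060 without siCTRL replicate 2. TET2 turned to -0.028, -0.14 and -0.11 without siIRF4 replicate 2, siCTRL replicate 1 and siCTRL replicate 3, and its main transcript to -0.017, -0.12 and -0.12. TET3 turned to 0.092, 0.036 and 0.033 without siIRF4 replicate 2, siIRF4 replicate 3 and siCTRL replicate 3. ENST00000540549 turned to 0.11 without siIRF4 replicate 1, 0.071 without siCTRL replicate 3 and 0.054 without siIRF4 replicate 1 and siCTRL replicate 2 together. The share difference of the TET2 transcripts ran from -0.30 to 3.14 percentage points over the same single omissions, with -0.30 without siCTRL replicate 3.

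The count of 0 called transcripts became 175 of 83614 tested with DESeq2 and 8 of 83831 with limma on log2(TPM + 0.1). Of the 4 TET transcripts 0 were among them, which at such small shares is no result about the TET genes. The cause of the calls was not tested. The count was 0 in every other fit run. With the replicate block, in a paired model, the TET1, TET2 and TET3 values were -0.09, 0.09 and -0.06, and the transcripts at an unadjusted p under 0.05 rose from 1791 to 2746. Deviations from the group means correlated at 0.20, 0.24 and 0.038 between libraries with the same number. Libraries with different numbers were not compared in this way, so these values do not settle whether the numbers pair the libraries. The main fit had no block. Counts per kilobase, or the main transcript alone, put TET3 first in 5 libraries in place of 4. Sums over all transcripts of a gene, the level of IRF4 and the gene lists were not run. Estimated counts divide fragments between isoforms, which adds error that the counting error leaves out.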
